A study of Homo sapiens with 6 samples.

Results

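The genes described here are LRP1 and 9 relatives or helpers of the low-density lipoprotein (LDL) receptor family: LRP3, LRP4, LRP5, LRP6, LRP8, LRP10, LRP12, VLDLR and the receptor chaperone LRPAP1. They were taken by gene symbol from the gene table, which held all 10 among its 17579 genes. RNA-seq was made from LP-1, an established human multiple myeloma line that the labels call a B lymphoblast. LP-1 cells were infected with a virus carrying a guide RNA to AURKA, which encodes the mitotic kinase Aurora A (labelled Aurora A-KO, 3 libraries, A1 to A3), or a guide with no target (NT Control, 3 libraries, C1 to C3). Both groups were grown in 10% FBS. The labels give no time of harvest in days or hours and do not say whether the cells were a clone or a pool, or whether replicates were separate cultures. The spread between libraries, and every p-value built on it, may therefore be technical. Depth lay between 17724174 and 18523594 expected counts, so a gene at 1 CPM (read count scaled to library size) had about 18 reads. C3 weighed most on the counts of changed genes: 267 genes passed with all libraries and 2034 without it. AURKA RNA was at 189, 192 and 195 CPM in C1 to C3 and at 113, 119 and 113 CPM in A1 to A3, which is 0.599 of the control level and still present. The set was chosen by LRP1, which was selected on the fall of its count between these same groups, so its difference and those of its relatives are given as description, and no test of them is used as support.

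Receptors of this family carry clusters of cysteine-rich ligand-binding repeats outside the cell and short tails that recruit clathrin adaptors. LRP1 is a very large receptor that takes up many proteases, protease-inhibitor complexes, matrix proteins and apolipoprotein E, and it is best known from hepatocytes, macrophages and fibroblasts. LRP5 and LRP6 instead act as Wnt co-receptors, LRP8 and VLDLR bind reelin and lipoproteins, and LRP4 binds agrin. LRPAP1 (also called RAP) escorts newly made receptors through the endoplasmic reticulum and keeps ligands from binding too early.

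The stretch before the transcription start is shown for LRP1, the gene whose RNA fell, and for LRP8, the member with the highest mean FPKM in control libraries. Sequences are those of RefSeq on GRCh38.p14, each the 250 bases upstream of the start, on the strand of the gene. Capitals mark GC boxes (GGGCGG or its reverse complement CCGCCC), the motif bound by SP1 and its relatives. LRP1 lies on the plus strand at chr12:57128233-57128482 and LRP8 on the minus strand at chr1:53328071-53328320.
LRP1: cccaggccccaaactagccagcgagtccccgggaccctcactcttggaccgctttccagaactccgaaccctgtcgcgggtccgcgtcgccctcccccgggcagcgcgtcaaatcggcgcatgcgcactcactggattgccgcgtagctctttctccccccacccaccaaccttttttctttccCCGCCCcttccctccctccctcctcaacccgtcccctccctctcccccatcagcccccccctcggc
LRP8: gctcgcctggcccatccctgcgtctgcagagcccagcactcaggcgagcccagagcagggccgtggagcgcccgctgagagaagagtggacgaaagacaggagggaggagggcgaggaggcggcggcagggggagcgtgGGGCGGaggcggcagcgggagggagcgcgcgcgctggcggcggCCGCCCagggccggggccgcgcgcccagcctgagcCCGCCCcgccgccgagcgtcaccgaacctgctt
The LRP1 stretch is 67.6% G or C and holds 20 CpG pairs and 1 GC box, and the LRP8 stretch is 77.2% G or C with 31 CpG pairs and 3 GC boxes. Over 35116 such windows in the table the median was 58% G or C and 11 CpG pairs. A GC box on either strand was present in 42.6% of them. Of the 10 members 7 had an entry, and of these only LRP10 had no match to the GC box in its window. These are matches of letters, and binding at them was not measured in this series.

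Per unit of transcript length, the 10 genes described here were led in LP-1 by 3 receptors at nearly the same level. LRP1 was close to the bottom of the 10. CD320, outside the 10 but with the same ligand-binding repeats, was higher, at 133 ± 13.8 FPKM in control. Levels are in FPKM, the authors' read count scaled by transcript length and library size, as mean ± SD over 3 control libraries. LRP8 was at 14.0 ± 0.475, LRP12 at 13.2 ± 0.780 and LRP10 at 13.2 ± 0.573 FPKM. The control ranges of neighbours in this order overlapped among these 3, so their order is not resolved. The chaperone LRPAP1 followed at 9.38 ± 0.580, LRP5 at 7.52 ± 0.670 and LRP6 at 1.73 ± 0.0451 FPKM. LRP4 was at 0.643 ± 0.0666, LRP1 at 0.457 ± 0.0208 and VLDLR at 0.19 ± 0.07 FPKM. LRP3 was barely seen, with expected counts of 0, 1 and 1 in the control libraries and 0 in each AURKA-guide library, where a count of 0 still allows up to 3 reads. From LRP10 down to LRP3 no control ranges of neighbours overlapped. In the AURKA-guide libraries the order was the same, but LRP1 at 0.277 ± 0.0306 FPKM now overlapped VLDLR at 0.263 ± 0.0153 FPKM. LRP8 at 14.8 ± 0.329 FPKM no longer overlapped LRP12 at 13.05 ± 0.770 FPKM there, while LRP12 and LRP10 still overlapped. LRP1 made up 0.882% to 0.913% of the summed FPKM of the 9 receptors in control and 0.512% to 0.611% in AURKA-guide libraries, while that sum was 49.9 to 52.6 and 48.8 to 50.8 FPKM.

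**Figure D1:**
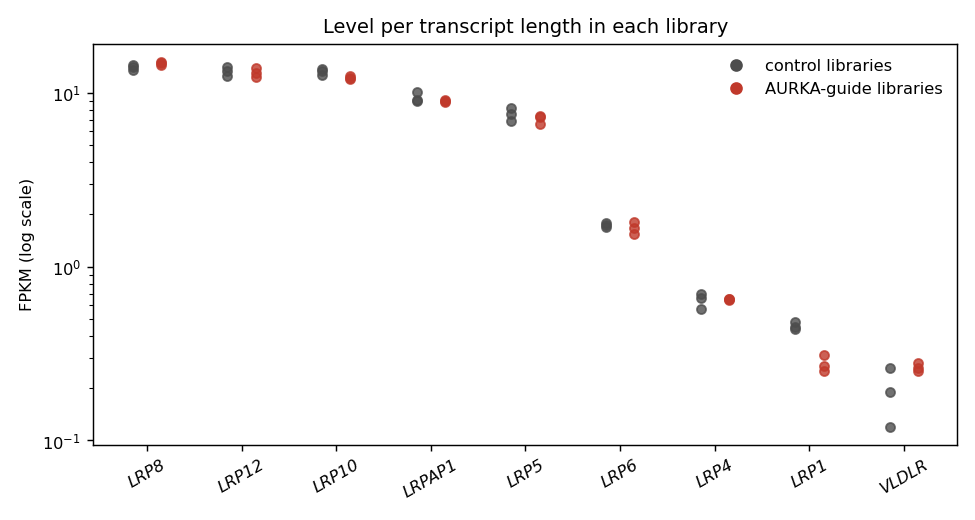
Level per transcript length of 9 members (x axis, in order of the control mean) in FPKM on a log axis (y axis), 1 point per library. LRP8, LRP12 and LRP10 lie together near 13 to 14 FPKM, and only LRP1 has control points (grey) well above its AURKA-guide points (red). LRP3, listed at 0 in 4 libraries, is left out.

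LRP1 (gene ID 4035), the endocytic receptor, was lower in every AURKA-guide library than in every control library. Its expected counts were 135, 121 and 124 in C1 to C3 and 87, 71 and 76 in A1 to A3. As normalised counts these were 7.30, 6.91 and 6.66 CPM in control (6.96 ± 0.322, SD, n = 3) and 4.76, 3.87 and 4.12 CPM under the AURKA guide (4.25 ± 0.458, SD, n = 3). The groups did not overlap, with A1 the highest AURKA-guide library and C3 the lowest control library. The fitted log2 difference, AURKA guide over control, was -0.71 (SE 0.125), or 0.611 of the control level. Counting alone gives a coefficient of variation of 8.89% at this depth, and the 3 control libraries varied by 4.62%. The difference thus rested on 71 to 135 reads per library. In the authors' deposited gene table LRP1 is listed at a log2 fold change of -0.71 with a q-value of 0.0212, the 1 member among the 229 genes of that table, which are 1.3% of all genes. Being a bulk measurement, it cannot tell fewer LRP1-expressing cells from less LRP1 RNA per cell.

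Of the 9 tested members, 1 (LRP1) lay past the threshold used for all genes (adjusted p under 0.05, edgeR quasi-likelihood test over 13138 genes), which the choice of LRP1 fixed and which is no evidence about the family. Over all genes 2.03% passed, 0.959% higher and 1.07% lower. With 1 library left out in turn the LRP1 difference ran from -0.80 to -0.65, and as a limit, without C1, A2 or A3 it no longer lay past that threshold. On the FPKM scale LRP1 lay below the minimum of 0.5 and was not tested. With a minimum of 0.1 FPKM it was at -0.57 (SE 0.175) on log2(FPKM + 0.1), also not past the threshold. Its transcript is 60.1% G or C, against a median of 48.5% over tested genes, and after a correction for GC content the difference was -0.64 (SE 0.120).

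**Figure D2:**
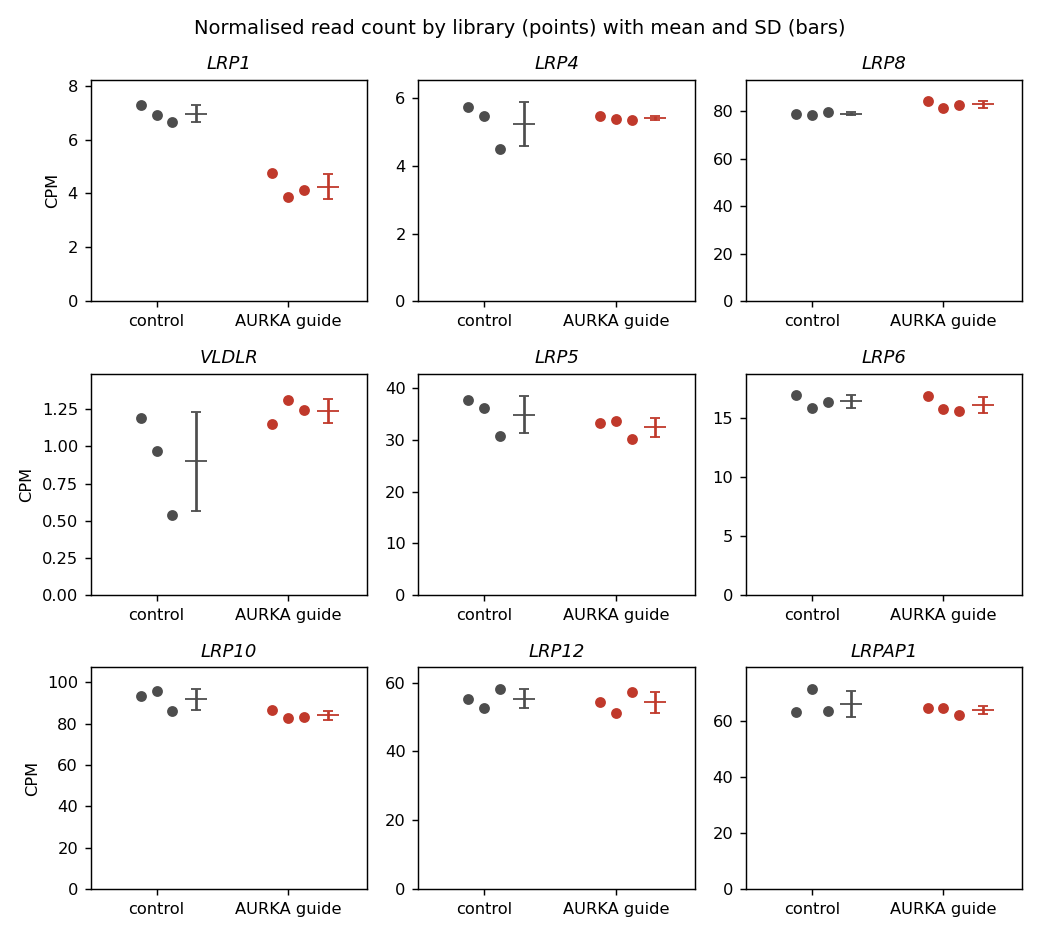
Normalised read count in CPM (y axes, from 0) of the 9 tested members in control (grey) and AURKA-guide (red) libraries, 1 point per library with the group mean and SD beside them. LRP1 falls from 6.96 to 4.25 CPM with no overlap, LRP8 is slightly higher without overlap, and the other 7 overlap between groups.

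LRP4, the agrin receptor with an LRP1-like outer part, was at 5.73, 5.48 and 4.51 CPM in C1 to C3 and at 5.47, 5.40 and 5.37 CPM in A1 to A3. The groups overlapped, with C3 the lowest library, and the log2 difference was 0.05 (SE 0.129). LRP4 had nearly the same read depth as LRP1 (84 to 106 expected counts), so the 2 differences were measured with the same error, and that of LRP4 turned to -0.05 without C3 and was 0.08 after the GC correction.

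Of the reelin and lipoprotein receptors, LRP8 (ApoER2) was the 1 other member whose groups did not overlap in CPM. It was at 78.8, 78.5 and 79.6 CPM in control and 84.6, 81.6 and 82.9 CPM in AURKA-guide libraries, a log2 difference of 0.07 (SE 0.0509) that was 0.05 after the GC correction and 0.04 with GC content and length. In CPM, groups did not overlap in 20.8% of all genes tested (10.5% higher and 10.2% lower). Among the members this was 2 of 9, 1 in each direction. In FPKM the LRP8 groups overlapped, at 14.49, 14.01 and 13.54 in control and 15, 14.39 and 14.91 in AURKA-guide libraries. LRP1 and LRP10 lay lower without overlap in FPKM, and the share of all genes without overlap on that scale was not computed. VLDLR was counted by 10 to 24 reads per library. Its CPM were 1.19, 0.971 and 0.537 in C1 to C3 and 1.15, 1.31 and 1.247 in A1 to A3, with C3 well below the rest. The log2 difference of 0.46 (SE 0.291) moved to 0.19 without C3 and to 0.71 without C1, so single control libraries set its size.

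The Wnt co-receptors lay lower by less than the spread. LRP5 was at 37.7, 36.2 and 30.8 CPM in control and 33.4, 33.6 and 30.2 CPM in AURKA-guide libraries, a log2 difference of -0.11 (SE 0.0800). C3 lay among the AURKA-guide values, and without it the difference was -0.19. LRP5 has the second highest transcript GC content of the 10 (62.8%), and after the GC correction it was at -0.01 (SE 0.057). LRP6 was at 17.0, 15.9 and 16.4 CPM in control and 16.8, 15.8 and 15.6 CPM in AURKA-guide libraries, and the log2 difference was -0.03 (SE 0.0774). Its transcript is 40.2% G or C, and LRP6 moved the other way under the GC correction, to -0.09 (SE 0.0743), and to -0.11 with GC content and length. The groups of both genes overlapped.

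LRP10 and LRP12, with LRP3, form a more distant subgroup with CUB domains, and LRP10 is known to cycle between the Golgi and endosomes. LRP10 was at 93.1, 95.9 and 86.1 CPM in control and 86.4, 82.6 and 83.1 CPM in AURKA-guide libraries, a log2 difference of -0.13 (SE 0.0562). C3 and A1 overlapped in CPM but not in FPKM, where C3 was at 12.59 and A1 at 12.43. The log2 difference was -0.17 without C3 and -0.08 after the GC correction. Without C3 LRP10 passed the threshold (adjusted p = 0.0246, edgeR), as did 2034 of 13283 genes. LRP12 was at 55.3, 52.6 and 58.3 CPM in control and 54.3, 51.2 and 57.3 CPM in AURKA-guide libraries. These values overlapped throughout, with a log2 difference of -0.03 (SE 0.0636) that was 0.01 without C3 or A2 and -0.09 after the GC correction.

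The chaperone LRPAP1 was at 63.4, 71.5 and 63.7 CPM in control and 64.6, 64.7 and 62.2 CPM in AURKA-guide libraries. Only C2 stood above the rest, the log2 difference was -0.05 (SE 0.0611), and it was 0.01 without C2 and -0.03 after the GC correction. Over the 9 tested members 3 differences lay above 0 and 6 below, with a median of -0.03, beside a median of -9.4e-05 over all genes tested.

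**Figure D3:**
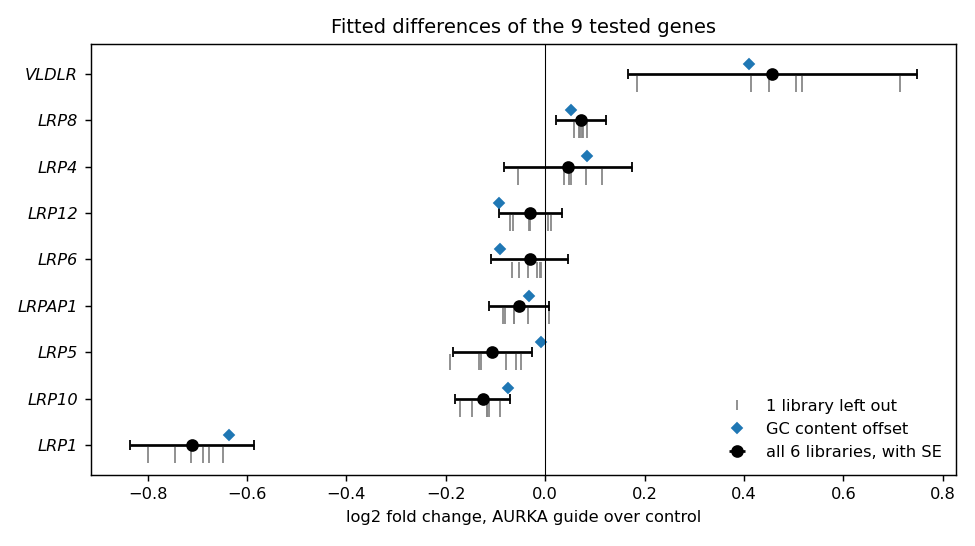
Fitted log2 fold change, AURKA guide over control (x axis), of the 9 tested members (y axis): black points with SE from all 6 libraries, grey ticks from the 6 fits that left out 1 library each, blue diamonds after the GC correction. LRP1 stays between -0.80 and -0.64 in all of these, VLDLR ranges from 0.19 to 0.71, and the other 7 lie within 0.2 of 0.

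The transcript table divides each gene's reads among RefSeq models, which RSEM estimates from few distinguishing reads. Of 38 models of the 10 genes, 19 were at 0 in at least 1 library and 3 had reads in 1 library only. LRP1 had 2 models. The curated NM_002332.2 held 44.97, 121 and 124 expected counts in C1 to C3 and 87, 71 and 76 in A1 to A3, and the predicted XM_017019303.1 held 90.03 in C1 and 0 in the other 5 libraries. In C1 66.7% of the gene's reads were thus placed on a model that no other library used, while the gene total of 135 lay beside those of C2 and C3. The authors' deposited transcript table lists XM_017019303.1 at a log2 fold change of -21.46 with a q-value of 7.61e-07. NM_002332.2 was at a log2 difference of -0.33 (SE 0.485, edgeR on transcripts), with C1 below all 3 AURKA-guide libraries and C2 and C3 above them.

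LRP5 had the same kind of entry in another library. XM_011545030.1 held 95.86 expected counts in C3 and 0 in the other 5, and the authors' deposited transcript table gives it a log2 fold change of -21.52 and a q-value of 5.66e-07. These were the only models of the 10 genes with a q-value under 0.05 there, beside 1.55% of all transcripts with a q-value. In the edgeR fit 29 of the 38 models were tested and none passed, with none at an unadjusted p under 0.05 and none called by DESeq2. Over all transcripts 0.00227% passed, which is 1 of 43979, and 3.85% were at an unadjusted p under 0.05.

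A pair of LRP6 models lay apart between the groups in opposite directions. NM_002336.2 held 57.8, 0 and 46.87 expected counts in control and 121.93, 268.6 and 134.58 in AURKA-guide libraries. XM_011520671.3 held 146.34, 125.98 and 124.92 in control and 46.54, 2.73 and 39.33 in AURKA-guide libraries. The log2 differences were 2.33 (SE 1.48) and -2.17 (SE 0.942), neither past the threshold, while the gene totals were 278 to 314. The LRP6 pair was not alone in this. XR_949925.2 of LRP5 lay higher, and XM_011520104.2 of LRP4 and XM_017002265.1 of LRP8 lower, without overlap and not past the threshold. The share of such models over all transcripts was not computed. For LRP8, XM_005271175.3 ranged from 0 in A2 to 407.97 in A1, so its lowest and highest values were in the same group. LRPAP1 had 66.0% to 70.9% of its reads on XR_002959730.1, a predicted non-coding model, in all 6 libraries.

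**Figure D4:**
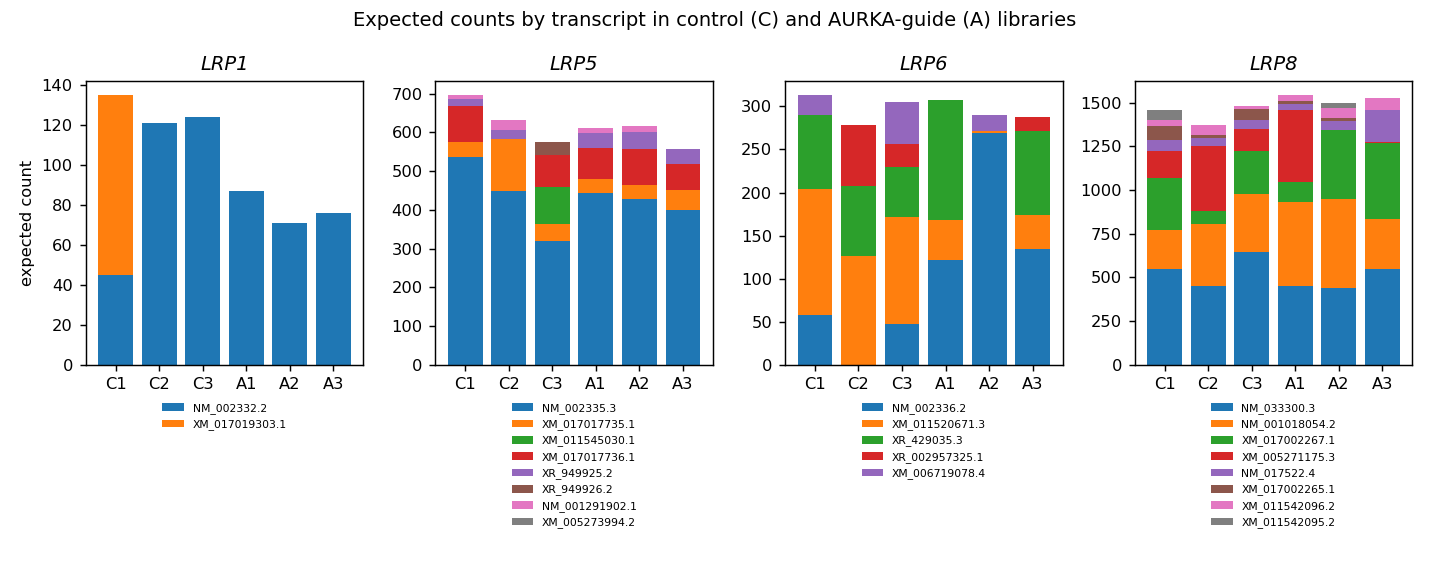
Expected counts (y axes, from 0) of LRP1, LRP5, LRP6 and LRP8 stacked by RefSeq transcript model (colours) in each control (C1 to C3) and AURKA-guide (A1 to A3) library. Bar heights are the gene totals; LRP1 is lower in all AURKA-guide libraries, while XM_017019303.1 appears in C1 only and XM_011545030.1 of LRP5 in C3 only.

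The partners of these receptors were followed in 8 lists by role, 149 genes in all, of which 106 were tested. CTGF, MMP9 and LEF1 rose and none fell, which is 2.83% of the 106 beside 2.03% of all genes. The median over the 106 was -0.02. Adjusted p-values are those of the edgeR fit over all genes, in which 16.1% of genes were at an unadjusted p under 0.05. Without C3, 2034 of 13283 genes passed. The genes said below to pass without C3 passed in no other fit that left out 1 library. Of the 3, CTGF and LEF1 also stand in the authors' deposited gene table, with q-values of 0.0185 and 0.00104.

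Among 15 tested ligands of LRP1, 2 rose and none fell, beside 0.959% higher and 1.07% lower over all genes, with a median of -0.01. CTGF (CCN2), a matrix-associated growth factor modulator that LRP1 binds, was at 1.95, 2.51 and 2.15 CPM in control and 4.43, 3.65 and 4.82 CPM in AURKA-guide libraries. It rose 1.95-fold (log2 0.97, SE 0.176, adjusted p = 0.00810), and the call was lost without C1 (0.0618) and without A3 (0.0743). MMP9, a gelatinase that LRP1 clears from the surroundings, was at 0.919, 0.514 and 0.537 CPM in control and 1.31, 2.02 and 1.84 CPM in AURKA-guide libraries, on 9 to 37 reads. It rose 2.60-fold (log2 1.38, SE 0.294, adjusted p = 0.0234), and the call was lost without C2 (0.0605), A2 (0.149) and A3 (0.130). The groups of both genes were apart. The protease inhibitor SERPINE2 was at -0.29 (SE 0.0894, adjusted p = 0.128), and at -0.32 after the GC correction (adjusted p = 0.0239). The chaperones HSP90AA1 at 0.15 (SE 0.0594) and HSP90B1 at 0.11 (SE 0.0488) had adjusted p-values of 0.242 and 0.277, and passed without C3 (0.00288 and 0.0146). Apolipoprotein E, alpha-2-macroglobulin and thrombospondin 1, ligands for which LRP1 is best known, were below the filter on low counts.

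Of 18 tested adaptors and trafficking genes none passed (edgeR), with 5 at an unadjusted p under 0.05 (16.1% of all genes) and none called by DESeq2. Of their differences 12 lay below 0, beside 6573 of 13138 genes tested, with a median of -0.05. APBB2, of the FE65 family that binds LRP1 and APP tails, was at -0.27 (SE 0.0973, adjusted p = 0.199, and 0.0477 after the GC correction). The AP-2 subunit AP2A1 was at -0.18 (SE 0.0657, adjusted p = 0.205, and 0.00322 without C3). SNX17, a sorting nexin that binds the LRP1 tail and returns the receptor from endosomes to the surface, was at -0.15 (SE 0.0553, adjusted p = 0.214, and 0.0113 without C3).

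Of 15 tested genes of folding, cleavage and degradation of the receptors none passed (edgeR), with 2 at an unadjusted p under 0.05 (16.1% of all genes) and none called by DESeq2. The sheddase ADAM10 was at 0.17 (SE 0.0549, adjusted p = 0.151, and 0.00333 without C3). MYLIP (IDOL), the ubiquitin ligase that sends VLDLR and LRP8 to lysosomes, was at 0.18 (SE 0.0652, adjusted p = 0.202), and PSEN2 of gamma-secretase at 0.15 (SE 0.0839, adjusted p = 0.392).

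Around LRP5 and LRP6, none of 31 tested Wnt genes passed (edgeR), with 3 at an unadjusted p under 0.05 (16.1% of all genes) and none called by DESeq2. PORCN, which lipidates Wnt proteins, was at -0.31 (SE 0.0934, adjusted p = 0.117, and 0.0391 without C3). The R-spondin receptor LGR4 was at -0.19 (SE 0.0775, adjusted p = 0.249, and 0.0273 after the GC correction), and beta-catenin itself, CTNNB1, at 0.11 (SE 0.0470, adjusted p = 0.255). Of 10 tested targets of beta-catenin 1 rose and none fell, beside 0.959% higher and 1.07% lower over all genes, with a median of 0.07. LEF1, a DNA-binding partner of beta-catenin and itself a target, was at 261, 256 and 252 CPM in control and 295, 300 and 299 CPM in AURKA-guide libraries. It rose 1.16-fold (log2 0.22, SE 0.0442, adjusted p = 0.0164), and the call was lost without C1 (0.105), A1 (0.0774), A2 (0.112) or A3 (0.128). RNF43 at 0.12 (SE 0.0732) and TCF7 at 0.12 (SE 0.140) had adjusted p-values of 0.453 and 0.701.

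None of 8 tested genes of reelin and agrin signalling passed (edgeR), with 3 at an unadjusted p under 0.05 (16.1% of all genes) and none called by DESeq2. FYN, the kinase that phosphorylates the reelin adaptor DAB1, was at -0.27 (SE 0.0724, adjusted p = 0.0777), and it passed without C3 (0.0158) and after the GC correction (0.0102). The ligands AGRN at -0.30 (SE 0.0998, adjusted p = 0.154, and 0.0129 without C3) and RELN at -0.27 (SE 0.0969, adjusted p = 0.200) were also lower in all AURKA-guide libraries. Of the 8, 4 lay lower without overlap and 0 higher, beside 10.2% and 10.5% of all genes. Higher and lower counts in other lists were 3 and 1 of 10 for sterol genes and 4 and 1 of 15 for ligands. They were 0 and 2 of 18 for adaptors, 2 and 0 of 15 for processing and 2 and 3 of 31 for Wnt. Targets of beta-catenin had 2 and 0 of 10, and further family or repeat genes 1 and 1 of 5. Differences were above 0 for 3 and below for 5, with a median of -0.02.

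None of 10 tested genes of sterol sensing and efflux passed (edgeR), with 4 at an unadjusted p under 0.05 (16.1% of all genes) and none called by DESeq2, and the median was 0.03. The LXR receptor NR1H2 was at -0.20 (SE 0.0751, adjusted p = 0.202, and 0.0101 without C3). INSIG1, which holds the sterol sensor SCAP in the endoplasmic reticulum, was at 0.13 (SE 0.0518, adjusted p = 0.220, and 0.00916 without C3). A further 5 tested genes belong to the LDL receptor family or carry its ligand-binding repeats. Of these none passed (edgeR), with 1 at an unadjusted p under 0.05 (16.1% of all genes) and none called by DESeq2. LRP11 was at -0.24 (SE 0.116, adjusted p = 0.321), LDLRAD3 at 0.14 (SE 0.0840, adjusted p = 0.432) and CD320, the transcobalamin receptor, at -0.09 (SE 0.0769, adjusted p = 0.590), which was 0.03 after the GC correction.

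**Figure D5:**
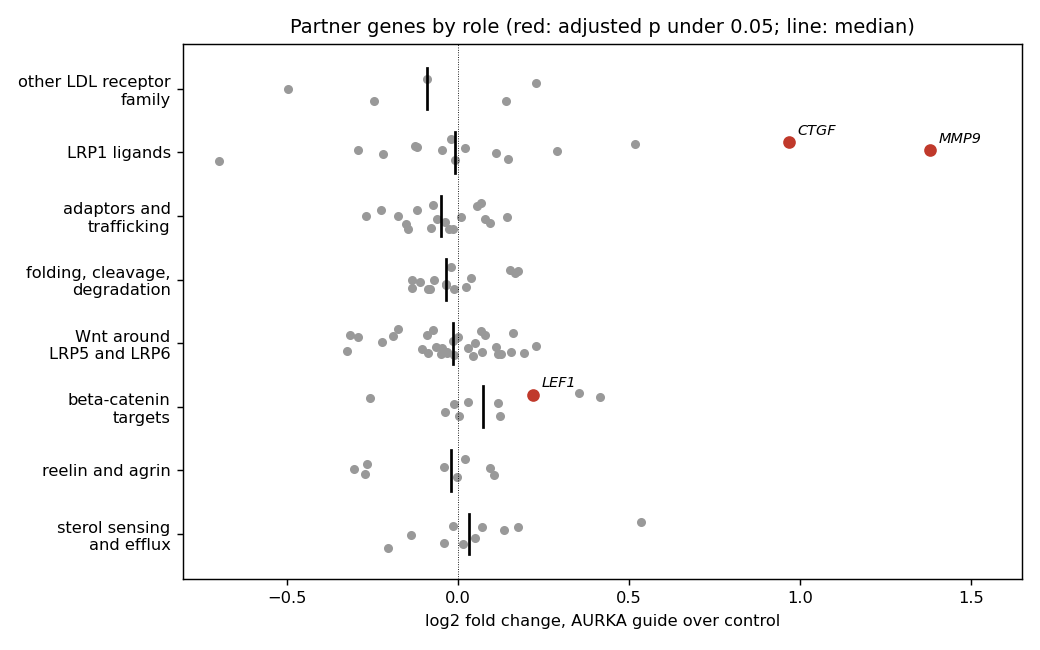
Log2 fold change, AURKA guide over control (x axis), of the tested partner genes in 8 lists by role (y axis), 1 point per gene, with red for adjusted p under 0.05 and a line at each list's median. CTGF at 0.97, MMP9 at 1.38 and LEF1 at 0.22 are red, and all list medians lie between -0.09 and 0.07.

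By the correlation of log2 CPM over the 6 libraries, the genes most like LRP1 were EPB41L1 (Pearson r = 0.997), DBNDD1 (0.996), CR2 (0.993), ESYT1 (0.992) and ADGRL1 (0.991), among 10243 genes whose mean reached 5 CPM. An r over 0.9 was reached by 281 genes, or 2.74%, and the group difference on which LRP1 was selected enters each value. The log2 differences of the 5, in the same order and given as description, were -0.17, -0.42, -0.43, -0.15 and -0.53.

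LP-1 is labelled a B lymphoblast of multiple myeloma, and 7 of 8 plasma cell markers were at means from 90.8 CPM (SDC1) to 1468 CPM (XBP1), while SLAMF7 was at 0.737 CPM. Their summed level was lower without overlap, at 3492 to 3596 CPM in control and 3415 to 3455 CPM in AURKA-guide libraries. XBP1, the largest part of that sum, overlapped between groups at a log2 difference of -0.03. A background for such a sum was not computed. Of the 8, 7 lay below 0, beside 6573 of 13138 genes tested, with a median log2 difference of -0.11. At an unadjusted p under 0.05 were 4 (16.1% of all genes). IRF4 at -0.12, TNFRSF17 at -0.12 and PRDM1 at -0.06 lay lower without overlap, as did 10.2% of all genes, and did not pass the threshold. CD38 alone passed, and it rose by 0.38 (SE 0.0456, adjusted p = 0.000416, edgeR). The relation of these marker differences to the LRP1 difference was not tested.

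Markers of macrophages, which carry much LRP1, summed to 5.37 to 6.11 CPM in control and 5.14 to 5.83 CPM in AURKA-guide libraries (5 of 6 in the table, 2 tested). CD68, also a general lysosomal protein, was lower without overlap, at 3.46, 3.43 and 3.28 CPM in control and 3.17, 2.40 and 2.38 CPM in AURKA-guide libraries (log2 -0.35, SE 0.171, adjusted p = 0.326, edgeR). LYZ was at 0.23 (SE 0.212) with overlapping groups, and the defining markers CD14, CSF1R and ITGAM were at means of 0.0271, 0.0452 and 0.0904 CPM. Stromal markers summed to 4.78 to 5.78 and 5.15 to 5.94 CPM (6 of 7 in the table, 1 tested), of which ACTA2 made up nearly all at a mean of 5.02 CPM. The part of CD68-expressing cells in the LRP1 difference was not tested. T and NK cell markers summed to at most 0.595 CPM (4 of 5 in the table, 0 tested). Epithelial markers summed to 3.92 to 5.19 CPM in control and 3.74 to 4.36 CPM in AURKA-guide libraries (5 of 5 in the table, 4 tested). KRT18 among them was lower without overlap on 11 to 26 reads (log2 -0.67, SE 0.272, adjusted p = 0.240, edgeR). KRT8 at -0.07, CDH1 at -0.42 and KRT5 at 0.26 overlapped between groups. Beside CD68 and KRT18 stand 10.2% of all genes tested that lay lower without overlap. No marker in the table was at 0 in all 6 libraries.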

How the data were processed

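Libraries followed a BGISEQ500 protocol, per the labels' protocols. BWA, Bowtie2, RSEM and the build hg19 are named in the submitters' processing notes without versions or roles, and RNA selection and strandedness are not stated in the labels. The authors deposited gene and transcript tables of expected counts (estimated reads, 44.8% of gene values not whole) and FPKM values (scaled by length and library size by the authors). Log2 fold changes and q-values (adjusted p-values) stand in the authors' deposited tables of the comparison, whose column names mention DESeq2. Total counts were 17724174 to 18523594 per library.

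Rounded expected counts entered edgeR 4.0.16 (R 4.3.3): filterByExpr (13138 genes kept), TMM scaling, the quasi-likelihood F test and Benjamini-Hochberg adjustment at 0.05 over all genes, and likewise for transcripts. CPM use the TMM-scaled library size, and standard errors come from the F statistic. LRP3 did not pass the filter. A few partner genes are not reported here and enter no list count. The fit was tested on simulated data, in which the share of false calls lay above the threshold of 0.05. The members and lists were chosen with earlier results of these data known. Named partner genes are those past the threshold and, in each list, the 3 of lowest p among genes with a mean of 5 CPM or more.

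Other settings tried were a replicate block, leaving out single libraries, a minimum of 10 CPM or none, scaling by DESeq2 size factors or by totals, DESeq2 1.42.0 (Wald test), limma 3.58.1 on log2(FPKM + 1) or log2(FPKM + 0.1) with at least 0.5 FPKM in 3 libraries, and offsets for GC content and length (natural splines, 5 degrees of freedom, found for 16858 genes in GENCODE release 29). A minimum of 0.1 FPKM was added after seeing the data. Reads carry no molecular identifiers, so counting errors cover counting only. GRCh38.p14 coordinates are given only for RefSeq promoter sequences, since the authors used hg19.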

Additional observations from a re-analysis of the deposited data

How the results depend on the processing

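The count of changed genes (267) was 98 to 2034 over the fits that left out 1 library (2034 without control replicate 3), 808 after the GC correction, 896 with GC content and length, 912 with the GC correction and the replicate block, and 156 with a minimum of 0.1 FPKM, the last chosen after seeing the data. The count of receptor genes called (1, LRP1) was 0 to 2 with 1 library left out, the 2 being LRP1 and LRP10 without control replicate 3. It was 0 with at least 10 CPM (LRP1 not tested), with either FPKM pseudocount (LRP1 not tested) and with a minimum of 0.1 FPKM. It was 1 in the 8 other alternatives. The count of partner genes called (3) was 0 to 22 with 1 library left out, 1 with at least 10 CPM, 10 after the GC correction, 12 with GC content and length, and 11 with the GC correction and the block. The count of transcripts called (1) was 0 with the replicate block, 0 in all fits with 1 library left out and 891 with DESeq2. With the replicate number as a block 385 genes, 1 receptor gene and 3 partner genes passed. Same-numbered libraries shared only a number: the correlations of their deviations from the group means were 0.051, -0.105 and 0.095. TCF7 was at -0.0038 without control replicate 3 and at up to 0.2138 with another library left out. CD320 was at 0.0263 after the GC correction, 0.0411 with GC content and length and 0.0262 with the GC correction and the block. LRP1 was selected on its fall and its groups did not overlap, so its unchanged sign in all 15 alternatives that tested it is no support. Sign changes occurred for LRP12 (2 of 18), LRP4 (1 of 17) and LRPAP1 (1 of 18). The cause of these differences was not tested.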

Other observations

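The transcript entries of LRP1 and LRP5 that rest on 1 library were not isolated in the deposited table. Of 1214 transcripts to which the authors' deposited transcript table gives a q-value under 0.05 for the AURKA guide, 388 had expected counts above 0 in 1 library only, and 962 (79.2%) were at 0 in at least 1 of the 6 libraries. LRP2 (megalin), outside the receptors described above, was at a log2 difference of -0.50 (SE 0.209, adjusted p = 0.261, edgeR) on a mean of 2.12 CPM, and was named after its values were seen. ABCA1, the cholesterol exporter, was at 0.53 (SE 0.151, adjusted p = 0.0973, edgeR) on a mean of 4.47 CPM, higher in all 3 AURKA-guide libraries than in any control library, and was also named after its values were seen.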
